A study of Mus musculus with 8 samples.

Results

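Follicular helper-like CD4 T cells of the mouse colon were examined here as 2255 cells out of 27420 cells in the authors' list of kept cells from colonic lamina propria, the tissue that underlies the gut lining. The cells were chosen by counts of transcript molecules (unique molecular identifiers, UMIs). A cell first had to pass a T cell gate, with at least 2 UMIs summed over Cd3e, Cd3d, Cd3g, Trac and Trbc2 and at most 1 UMI each of Cd79a (B cells), Col3a1 (fibroblasts) and C1qa (macrophages). It then had to carry no UMI of Foxp3 (regulatory T cells), Il17a (Th17 cells) or Gzmk, and at least 2 UMIs summed over the 4 marker genes Cxcr5, Sostdc1, Sh2d1a and Izumo1r. The gate held 19833 cells. The choice rests on measured values, so the levels of these genes describe the cells and were not tested between populations.

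All mice were C57BL/6 animals aged 10 to 12 weeks. Wildtype and mutant mice were each left untreated or treated, which gives 4 groups of 2 libraries, which the design text calls independent biological replicates. The mutants carry a serine to alanine substitution in the transcription factor RORgt, written S182A in the series title and S203A knock-in in the sample titles. Treated mice drank 2% dextran sulfate sodium (DSS), an agent that damages the lining of the colon, for 7 days and plain water for 3 days, untreated mice drank plain water, and all were taken on day 10. CD4 T cells were enriched magnetically from digested colon before droplet sequencing of transcript 3' ends. Sex and pooling of animals are not stated in the sources used here, and replicate numbers pair no libraries.

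Follicular helper T cells are CD4 T cells that enter B cell follicles through the chemokine receptor CXCR5 and help B cells in germinal centres, chiefly through CD40 ligand and interleukin 21. Their programme depends on the repressor Bcl6, which opposes Blimp-1, the product of Prdm1. In the gut they support IgA responses in Peyer's patches and lymphoid follicles. Izumo1r encodes folate receptor 4, which regulatory and anergic CD4 T cells also carry, and Sh2d1a encodes SAP, an adaptor of SLAM family receptors that T cells need for stable contact with B cells.

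Libraries held 34497509 to 46960005 UMIs over all barcodes, and 174 to 373 follicular helper-like cells each, whose summed counts ran from 549119 to 1773857 UMIs. Their median depth was 3018 UMIs per cell (2464 to 3886 by library). Mitochondrial genes took 3.63% to 4.35% of their UMIs by library. Other CD4 T cells, meaning the 9067 gated cells without a Foxp3, Il17a or Gzmk UMI and with a marker sum of 0 or 1, had a median of 2187 UMIs and a mitochondrial share of 2.89% to 3.87%, lower than that of the follicular helper-like cells in each of the 8 libraries. The part of depth and mitochondrial share in the comparisons between these populations was not tested beyond the depth-matched fit given below. Among kept barcodes 88 sequences occurred in more than 1 library, and 21 follicular helper-like cells carried one of them. Levels are given below as CPM, the UMIs of a gene per 1000000 UMIs of all cells of a population summed within a library.

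Most cells entered through Izumo1r or Sh2d1a and not through Cxcr5. An Izumo1r UMI was present in 1711 cells (75.9%), a Sh2d1a UMI in 1491 (66.1%), a Cxcr5 UMI in 468 (20.8%) and a Sostdc1 UMI in 177 (7.85%). Sostdc1 encodes a secreted inhibitor of BMP and Wnt signals. Cells with only Izumo1r numbered 528, cells with only Sh2d1a 337, and 786 had both of these and neither Cxcr5 nor Sostdc1. The remaining 604 cells had Cxcr5 or Sostdc1, 41 of them both. For comparison, a Cxcr5 UMI was found in 1.5% of other CD4 T cells, in 4.34% of Foxp3 cells (3477 gated cells, median 3664 UMIs), in 9.07% of 3275 B cell barcodes (median 5319 UMIs) and in 0.373% of 6163 fibroblast barcodes (median 4736 UMIs), a type that should lack the gene. The B cell and fibroblast barcodes were chosen to hold no UMI of the gate's T cell genes, so their values can understate stray T cell transcripts. The marker sum was 2, the lowest value inside the rule, in 998 cells, 3 in 537, 4 in 309 and 5 or more in 411, while 2150 cells lay just outside with a sum of 1 and 6917 had none. In the GRCm38 annotation (GENCODE M21) the protein-coding marker genes lie on chromosome 9 (Cxcr5, 44511787 to 44561877, minus strand, and Izumo1r, 14885814 to 14903949, minus strand), chromosome 12 (Sostdc1, 36314139 to 36318452, plus strand) and chromosome X (Sh2d1a, 42502453 to 42529330, plus strand).

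Genes of the follicular helper programme that the rule did not read were split between higher, lower and not called against other CD4 T cells of the same libraries. Populations were compared with edgeR's quasi-likelihood test on these sums in all 8 libraries, with the library as a block. Of 9765 genes tested, 21.7% were called at an adjusted p under 0.05, 9.6% higher and 12.1% lower in follicular helper-like cells. Of 11 tested regulators 6 were higher and 2 lower, with a median log2 fold change of 0.45 against 0.01 over all genes. Tox2, an HMG-box factor that promotes follicular helper development, ranged from 65.6 to 148.9 CPM (median 105.9) in these cells and from 30.1 to 58.4 CPM (median 45.0) in other T cells. The sets of libraries did not overlap, which held for 2.04% of all 9765 genes tested. The log2 fold change was 1.22 ± 0.10 (SE, adjusted p = 7.7e-09, edgeR).

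Related Tox was also higher (log2 fold change 0.96 ± 0.09), as were Pou2af1, an octamer coactivator (0.96 ± 0.18), the AP-1 factor Batf (0.76 ± 0.08) and Tcf7, the TCF-1 factor of memory and follicular cells (0.53 ± 0.05). Bcl6 itself ranged from 36.4 to 58.2 CPM (median 48.9) against 27.3 to 42.4 CPM (median 34.3), with overlapping libraries and a log2 fold change of 0.45 ± 0.10 (adjusted p = 0.0031, edgeR). Irf4, a factor of activated T cells, was lower (-0.45 ± 0.10), as was Stat3 (-0.17 ± 0.04). Maf (-0.02 ± 0.04) and Lef1 (0.15 ± 0.09) did not pass the test. Ascl2, a factor that induces Cxcr5, was too low to be tested.

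Surface and help genes were split, with 6 of 14 higher and 3 lower. Slamf6, a SLAM family receptor that signals through SAP, ranged from 116.4 to 162.0 CPM (median 134.9) in follicular helper-like cells and from 37.9 to 78.5 CPM (median 66.8) in other T cells. Every library of the first set lay above every library of the second (log2 fold change 1.07 ± 0.08), and 2.04% of all genes tested had no overlap. Il6ra and Il6st, the 2 chains of the interleukin 6 receptor, were higher by 1.22 ± 0.13 and 0.58 ± 0.07 on the log2 scale. So were the inhibitory receptors Btla (0.85 ± 0.10) and Tigit (0.39 ± 0.12) and the CD200 ligand gene Cd200 (0.87 ± 0.12). Cd40lg, the CD40 ligand gene, was lower (-0.49 ± 0.11), as were Il21r (-0.59 ± 0.05) and, slightly, Icos (-0.11 ± 0.03). Pdcd1, which encodes PD-1 and is among the best known follicular helper markers, had a log2 fold change of 0.21 ± 0.12 that did not pass the test (adjusted p = 0.23, edgeR).

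Il21, the follicular helper cytokine that drives germinal centre B cells, ranged from 20.3 to 72.4 CPM (median 42.4) in follicular helper-like cells and from 10.5 to 21.7 CPM (median 13.8) in other T cells. It was higher in the follicular helper-like cells of 8 of 8 libraries, by 1.42 ± 0.14 on the log2 scale (adjusted p = 9.1e-08, edgeR), and by 1.78 against other T cells drawn to the same depth. Il21 lies on chromosome 3 (37222759 to 37232636, minus strand, GRCm38). Il4 was too low to be tested, at 0 in some libraries.

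Genes known to oppose the follicular helper fate or to be low in it were mostly lower, 8 of 12, with 1 higher. Prdm1 ranged from 24.96 to 31.6 CPM against 38.4 to 55.5 CPM (-0.76 ± 0.10), without overlap, as did 2.04% of all genes tested. The Th1 factor Tbx21 was lower by -1.56 ± 0.15, the inhibitor of E proteins Id2 by -0.92 ± 0.06, the interleukin 7 receptor Il7r by -1.07 ± 0.10 and Selplg, the selectin ligand that follicular cells lose, by -0.60 ± 0.07. Ccr7, the receptor that holds T cells in T zones, was the exception, at 0.48 ± 0.06. S1pr1, the egress receptor, had a value of -0.11 ± 0.09 and did not pass.

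Of the Th1 and cytotoxic list 10 of 12 genes were lower and none higher. Cxcr6, a chemokine receptor of tissue effector cells, ranged from 23.3 to 78.3 CPM against 138.2 to 287.7 CPM, a log2 fold change of -2.0 ± 0.10 and the lowest value among the genes named by size. Ifng (-1.35 ± 0.10), Ccl5 (-1.38 ± 0.08) and Gzmb (-1.17 ± 0.12) were lower too. Of 12 Th17 genes 7 were lower and none higher, among them Rora (-0.64 ± 0.05) and Il22 (-1.07 ± 0.21), although cells with an Il17a UMI were absent from both populations.

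Ikzf2, which encodes Helios and is best known from regulatory T cells, ranged from 295 to 424 CPM in follicular helper-like cells and from 128 to 204 CPM in other T cells (log2 fold change 1.06 ± 0.07, adjusted p = 2.4e-10, edgeR). In Foxp3 cells it ranged from 348 to 490 CPM, and its difference from follicular helper-like cells did not pass the test (-0.10 ± 0.05). It lies on chromosome 1 (69531214 to 69687245, minus strand, GRCm38). Elsewhere in the regulatory T cell list 1 gene was higher, Tnfrsf4, which encodes OX40 (0.18 ± 0.05), and 3 were lower, Il2ra (-0.63 ± 0.09), Gata3 (-0.40 ± 0.11) and Areg (-0.32 ± 0.06). Ctla4 (-0.04 ± 0.04) and Il10 (0.01 ± 0.08) did not pass. Of 14 genes of anergy and of folate receptor 4 and CD73 positive cells 5 were higher and 2 lower. The higher ones include Lag3, an inhibitory receptor (0.65 ± 0.09), and Egr2, an anergy-associated factor that follicular cells also use (0.76 ± 0.22), and the lower ones are the immediate early genes Nr4a1 and Nr4a2. Tigit, Tnfrsf4, Icos, Egr2 and Nr4a2 lost their call in some of the 8 fits that each left out 1 library, keeping it in 6, 6, 5, 4 and 2.

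**Figure D1:**
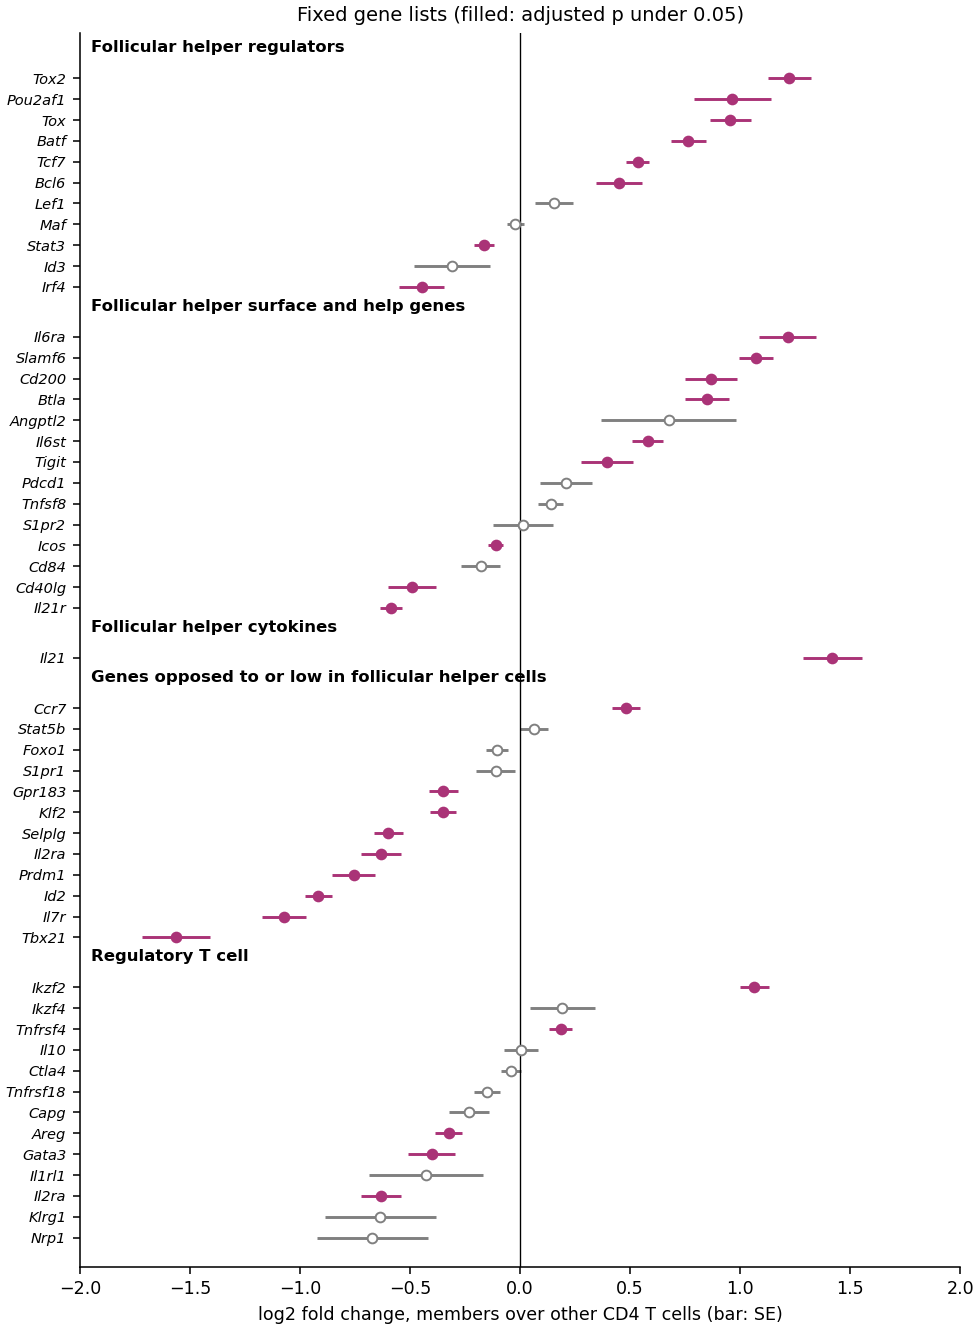
Log2 fold change of 5 fixed gene lists between follicular helper-like cells and other CD4 T cells (x axis, bars are standard errors), with filled points for genes at an adjusted p under 0.05 in edgeR. Il21, Tox2, Il6ra and Slamf6 lie to the right at 1.07 or above, Ikzf2 lies alone among regulatory T cell genes at 1.06, and Tbx21 lies farthest to the left at -1.56.

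Beyond the lists, the genes with the largest differences in the higher direction were H2-Q2, Fam43a, Nsg2, Ighm, Hey1, Acsl3, Setd4, Il21, Tubb2b and Aff3. Nsg2, an endosomal trafficking gene known mostly from neurons and thymocytes, ranged from 51.0 to 73.2 CPM against 7.64 to 22.4 CPM (log2 fold change 1.71 ± 0.12). The Notch target Hey1 (1.47 ± 0.15) and the acyl-CoA synthetase gene Acsl3 (1.45 ± 0.13) followed, and H2-Q2 (2.00 ± 0.19) belongs to a family of near-identical genes, so its counts are uncertain. In the lower direction the genes were Cxcr6, Actn2, Fasl, Ermn, Klrk1, Itga1, Serpinb1a, Tbx21, Lilrb4a and Lilr4b. Fasl, the death ligand of effector T cells, had -1.83 ± 0.12, and Itga1, a collagen-binding integrin chain of tissue-resident cells, -1.58 ± 0.19. All 20 kept their direction and their call under every alternative that could be run for them, including depth-matched other T cells. Against those, 1457 genes were called, 1106 of them also among the 2119 of the full comparison, and without the library block 1045 were called.

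Ighm, the immunoglobulin heavy chain gene, was higher in follicular helper-like cells, with 75.1 to 200.4 CPM against 26.4 to 70.8 CPM (log2 fold change 1.49 ± 0.09), and 563 of the 2255 cells (24.97%) held an Ighm UMI. Its mean was 36.7 CPM at a marker sum of 0 and 180.8 CPM at 5 or more, with 122.5 CPM at 4 below the 138.9 CPM at 3, and it averaged 114.3 CPM in Foxp3 cells and 609 CPM in B cell barcodes. Of the other 7 tested B and plasma cell genes 5 were lower, among them Igkc (-1.51 ± 0.24), and a Cd79a UMI was present in 19 follicular helper-like cells. Summed over the list of 13 genes, B and plasma cell genes ranged from 346 to 3597 CPM in follicular helper-like cells and from 727 to 5823 CPM in other T cells, with Cd79b, Ms4a1, Cd22, Pax5, Ly6d and Ighd among the genes at 0 in at least 1 library. Myeloid genes were lower for 6 of 9, antigen presentation genes for 4 of 4, heat shock and immediate early genes for 12 of 14, innate-like T cell genes for 5 of 7 with Klrb1c higher, and cell cycle genes were higher for 3 of 9 (Birc5, Pclaf and Tyms). Cd8a UMIs occurred in 3 cells and Cd8b1 UMIs in 29.

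Levels of genes outside the rule differed along the marker sum, also below the threshold. Mean Il21 was 12.1 ± 3.4 CPM (SD, n = 8 libraries) at a sum of 0, 23.2 ± 6.9 at 1, 37.0 ± 18.9 at 2, 41.1 ± 18.4 at 3, 43.4 ± 20.8 at 4 and 57.8 ± 24.0 at 5 or more. Ikzf2 went from 133.6 ± 32.7 CPM at 0 through 246.8 ± 35.0 at 1 and 314.8 ± 59.4 at 2 and 382 ± 69 at 3 to 404 ± 109 at 5 or more, with 364 ± 90 at 4, beside the 398 ± 54 CPM of Foxp3 cells. Cxcr6 went the other way, from 235 ± 54 CPM at 0 to 76.0 ± 24.3 at 2 and 30.6 ± 14.9 at 5 or more. Median depth was higher at each step, from 2128 UMIs per cell at 0 to 3686 at 5 or more, and its part in these steps was not tested. These values are a description, with no test, because the rule itself orders the cells.

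**Figure D2:**
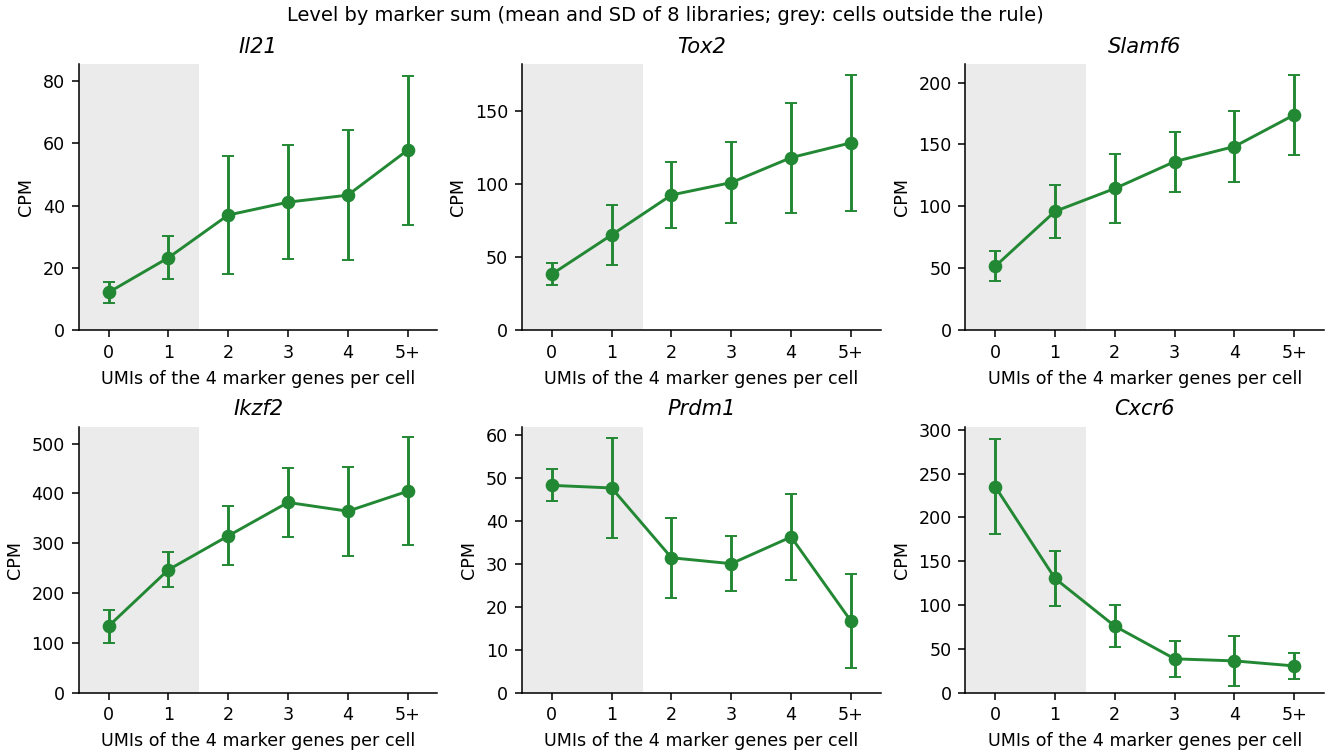
Level of 6 genes that the rule does not read (y axes, CPM) by the number of UMIs of the 4 marker genes in a cell (x axes), as mean and SD of 8 libraries, with grey for cells outside the rule. Il21, Tox2, Slamf6 and Ikzf2 are higher on the right than on the left, Cxcr6 goes from 235 to 30.6 CPM, and Prdm1 is lowest, at 16.7 CPM, where the sum is 5 or more.

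The 4 ways into the rule gave cells that differed in effector and regulatory genes. As a description, mean Il10, the gene of the suppressive cytokine interleukin 10, was 155.9 ± 46.1 CPM (SD, n = 8 libraries) in cells with only Izumo1r, 75.3 ± 38.1 in cells with Izumo1r and Sh2d1a, 40.4 ± 12.3 in cells with Cxcr5 or Sostdc1 and 30.5 ± 30.8 in cells with only Sh2d1a, against 240.3 ± 44.7 in Foxp3 cells. Ctla4, the gene of an inhibitory receptor, was 791 ± 224 CPM with only Izumo1r, 590 ± 129 with Izumo1r and Sh2d1a, 513 ± 147 with only Sh2d1a and 422 ± 48 with Cxcr5 or Sostdc1. Areg, the gene of the repair factor amphiregulin, averaged 362 ± 207 CPM with only Izumo1r and 141 ± 80 with Cxcr5 or Sostdc1. Ikzf2, in contrast, differed little between these sets (356.6 ± 73.5 and 367.3 ± 68.4 CPM) and lower with only Sh2d1a (261.2 ± 73.3). Il21 was highest with Cxcr5 or Sostdc1, at 54.6 ± 22.2 CPM, and lowest with only Sh2d1a, at 22.9 ± 15 CPM, with libraries that overlapped widely. Cells with only Sh2d1a numbered 25 to 64 per library, with summed counts as low as 101613 UMIs, and cells with only Izumo1r 30 to 98. Il21 in these sets therefore rests on few UMIs per library.

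**Figure D3:**
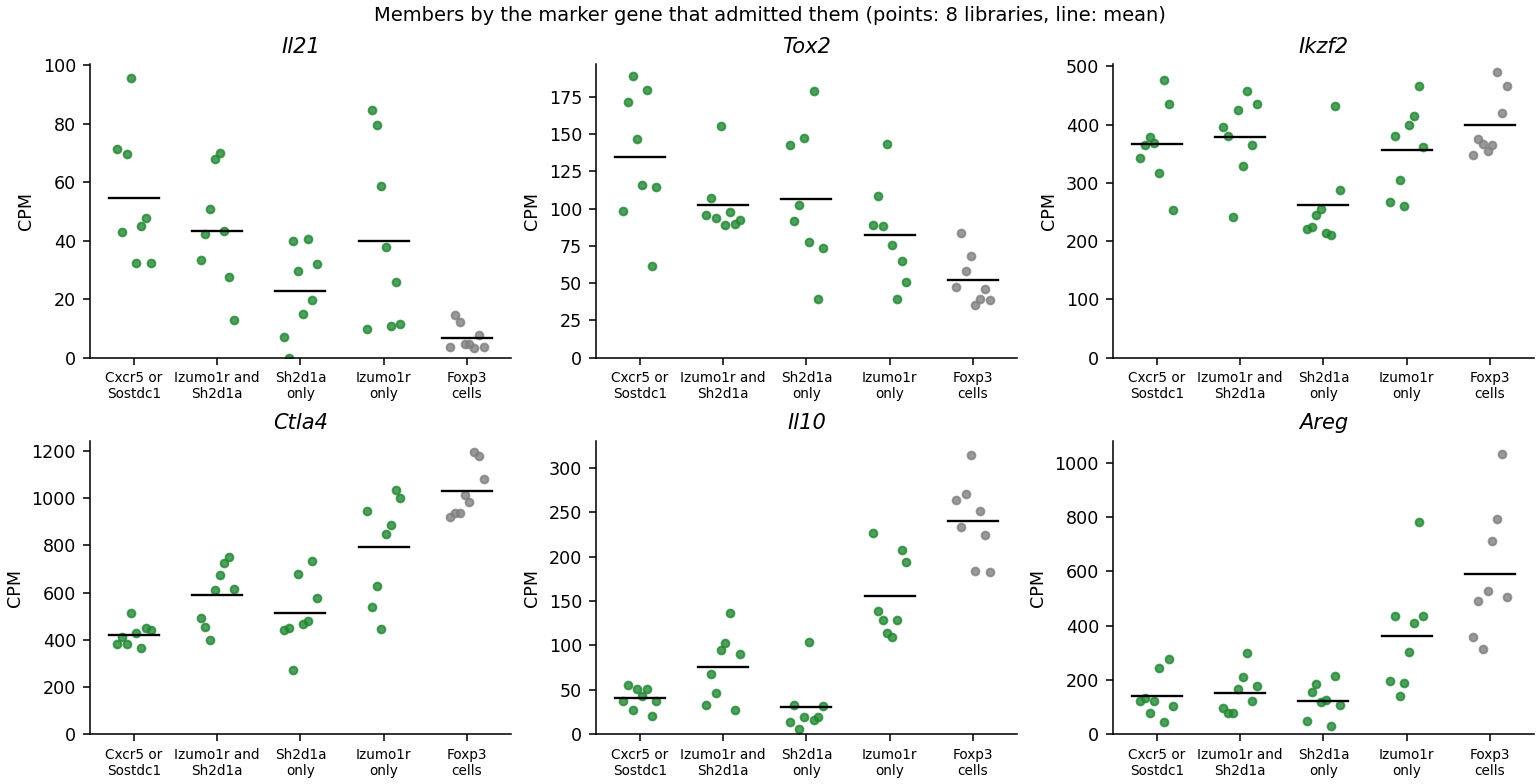
Level of 6 genes (y axes, CPM) in follicular helper-like cells by the marker genes they carry, and in Foxp3 cells (x axes), with 1 point per library and a line at the mean. Cells with only Izumo1r lie nearest to Foxp3 cells for Ctla4, Il10 and Areg, whereas Il21 in each of the 4 sets has means of 22.9 CPM or more against 6.82 CPM in Foxp3 cells.

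Splitting the cells by Cxcr5 alone, 468 cells with a Cxcr5 UMI and 1787 without, gave 6316 genes tested and 2.36% called, 0.681% higher and 1.68% lower with Cxcr5. The rule fixes part of this split, since a cell without Cxcr5 had to enter through the other markers, and all 528 cells with only Izumo1r, which had the highest mean Il10, Ctla4 and Areg of the 4 sets, are in the arm without Cxcr5. The calls below therefore describe these arms and were not separated from that make-up. The higher genes include Batf (log2 fold change 0.44 ± 0.11), Cd200 (0.80 ± 0.21), the NF-kappaB subunit Rel (0.42 ± 0.07) and the cytokine Mif (0.56 ± 0.08). S100a6, a calcium-binding protein of effector and memory cells, was lower in cells with Cxcr5, with 170.7 to 372.8 CPM (median 283.9) against 296.7 to 964.4 CPM (median 553.3) and a log2 fold change of -1.17 ± 0.12 (adjusted p = 1.2e-08, edgeR). The egress genes Klf2 (-0.58 ± 0.11) and S1pr1 (-0.72 ± 0.14) were lower, and so were the chemokine receptor Ccr2 (-1.25 ± 0.20) and Gzmb (-1.36 ± 0.27). Of 11 regulatory T cell genes 4 were lower and none higher, Il10 (-0.86 ± 0.16), Areg (-0.91 ± 0.16), Ctla4 (-0.40 ± 0.08) and Capg (-0.91 ± 0.14). Of the regulators and surface genes only Batf and Cd200 passed, and Il21 (0.42 ± 0.20), Tox2 (0.41 ± 0.12), Bcl6 (-0.10 ± 0.17) and Pdcd1 (-0.20 ± 0.20) did not. The other genes named by size were Get4, Cdk5r1, Hmgn1, Stk39, Stx11, Slc41a1, Pptc7 and Tnfaip8 in the higher and Sytl2, Itgb3, Plin2, Cpm, Eif4e3, Igf2r, Emp3 and Lamc1 in the lower direction. Cells with Cxcr5 were deeper, with a median of 3311.5 against 2941 UMIs, whose part was not tested. Without the library block 11 genes were called instead of 149, and Batf and Cd200 kept their call in 4 and 3 of 8 fits that each left out 1 library.

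Against Foxp3 cells, the other large population with Izumo1r (48.0% of these cells had its UMI), follicular helper-like cells differed in cytokine, memory and regulatory genes. Of 8673 genes tested 24.3% were called, 12.1% higher and 12.2% lower in follicular helper-like cells. Il21 ranged from 3.20 to 14.6 CPM (median 4.59) in Foxp3 cells, below every library of the follicular helper-like cells (log2 fold change 2.76 ± 0.20). Of all genes tested here 4.51% had no overlap between the populations. The regulators Bcl6 (1.04 ± 0.14), Tox2 (1.16 ± 0.10) and Tcf7 (2.12 ± 0.13) were higher, within 7 higher and 3 lower of 11. Cd40lg (1.26 ± 0.14), Btla (1.54 ± 0.13), Tnfsf8, the CD30 ligand gene (1.28 ± 0.08), and Pdcd1 (0.43 ± 0.13) were higher as well, and Icos (-0.39 ± 0.04) and Maf (-0.35 ± 0.04) lower. The surface and help list had 7 of 14 genes higher and 3 lower, the lower ones being Icos, Il6st (-0.46 ± 0.08) and Il21r (-0.31 ± 0.07). The list of genes opposed to or low in follicular helper cells was split, with 4 of 12 higher, namely Klf2 (0.50 ± 0.07), S1pr1 (0.73 ± 0.10), Ccr7 (0.44 ± 0.08) and Stat5b (0.34 ± 0.06), and 6 lower, Prdm1, Id2, Selplg, Il7r, Il2ra and Gpr183. Of 13 regulatory T cell genes 11 were lower and none higher, with Il2ra (-1.67 ± 0.07), Il10 (-1.49 ± 0.13), Areg (-1.50 ± 0.06) and Ctla4 (-0.77 ± 0.05) among them. Ikzf2 and Nrp1 (-0.39 ± 0.24) were the 2 that did not pass. Naive and central memory genes were higher for 9 of 11, Tcf7 and Lef1 (1.30 ± 0.11) among them, and Il7r was the 1 lower. Nsg2 had the largest fold, 3.1 ± 0.15, and in the lower direction Gzmb (-2.79 ± 0.14) and Havcr2, which encodes TIM-3 (-2.18 ± 0.18), were among the largest. Foxp3 cells may hold Il17a and Gzmk UMIs and follicular helper-like cells may not, so the rule can in part fix the lower Il17f and Gzmb. A Foxp3 UMI itself divides these populations, so the rule can also fix part of the lower regulatory T cell list. The calls for that list describe the populations and were not separated from this split. The other genes named by size were Esm1, H2-Q2, Aff3, Acsl3, Ntrk3, Utp14b, Tnfrsf26 and Gpm6b in the higher and Nckap5, Hsbp1l1, Cxcl3, Il17f, Klrg1, Rbm24, Laptm4b and Neb in the lower direction, and all 20 kept direction and call in every alternative run. Pdcd1 kept its call in 6 of 8 fits that each left out 1 library.

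Follicular helper-like cells made up 6.64% to 16.7% of gated T cells. Their share was 9.46% and 11.3% in untreated wildtype, 16.7% and 15.8% in untreated mutant, 12.4% and 10.7% in DSS-treated wildtype and 6.64% and 10.3% in DSS-treated mutant libraries. The 2 untreated mutant libraries were the highest of the 8, and the DSS-treated mutant libraries lay below the DSS-treated wildtype ones. Between treatments the share was 10.0 ± 2.4% (SD, n = 4) after DSS and 13.3 ± 3.5% untreated, which did not differ beyond the spread (exact two-sided permutation p = 0.23, 0.0286 being the smallest that 4 against 4 allow). Between genotypes, with both treatments pooled, the share was 12.3 ± 4.7% in mutant and 10.95 ± 1.2% in wildtype mice (exact permutation p = 0.57). This genotype difference, 1.393 points, was 0.01217 points with every cell thinned to 1000 UMIs. With T cells lacking Foxp3, Il17a and Gzmk UMIs as denominator it was 2.984 points (exact permutation p = 0.34). The difference between treatments, -3.3 points, was -2.178 without replicate 1 of the untreated mutants, -2.181 without replicate 1 of the treated mutants and -4.579 without replicate 1 of the untreated wildtype. With T cells lacking Foxp3, Il17a and Gzmk UMIs as denominator, chosen after the data were seen, the shares were 19.4% after DSS and 20.4% untreated, a difference of -1.04 instead of -3.3 points (exact permutation p = 0.74). Thinning took every listed cell with at least 1000 UMIs down to 1000 and applied the whole rule again. It set aside 319 gated cells that were shallower. The gate then held 1475 to 2320 cells per library instead of 1800 to 3507. In it 682 cells counted as follicular helper-like, among which could be cells that lost a Foxp3, Il17a or Gzmk UMI by thinning. Their shares were 4.14% after DSS and 5.19% untreated (exact permutation p = 0.20). Thinning thus changed class membership as well as depth. Shares are of 1 whole, and the other classes moved too: Foxp3 cells held 7.12% to 10.7% of gated T cells in untreated and 17.5% to 27.7% in DSS-treated libraries, and Il17a cells between 13.1% and 45.0%.

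The part of the follicular helper-like cells with a Cxcr5 UMI is given as a description, since the rule reads Cxcr5. It was 24.5% and 25.2% in untreated wildtype, 20.3% and 27.1% in untreated mutant, 20.1% and 17.5% in DSS-treated wildtype and 14.4% and 16.3% in DSS-treated mutant libraries. All 4 DSS values lay below all 4 untreated values, with means of 17.1 ± 2.4% and 24.3 ± 2.9% (SD, n = 4). At 1000 UMIs per cell the values were 10.96 ± 3.7% and 16.6 ± 3.6%, and the libraries overlapped. Sostdc1 was 116.7, 72.4, 101.7 and 74.0 CPM in the untreated and 47.3, 17.5, 82.0 and 19.7 CPM in the DSS-treated libraries, which overlap, and is likewise a description.

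**Figure D4:**
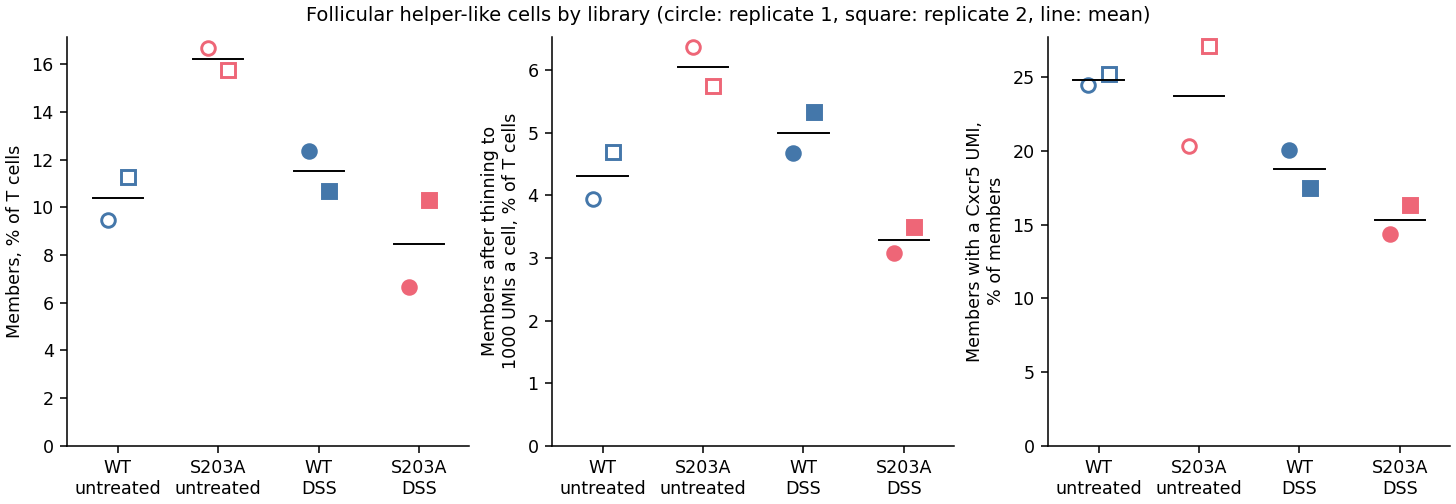
Share of follicular helper-like cells among gated T cells (left), the same after thinning to 1000 UMIs per cell (middle) and share of follicular helper-like cells with a Cxcr5 UMI (right), in percent on y axes that start at 0, for the 4 groups on the x axes, with 1 point per library and a line at the mean. Untreated mutant libraries are highest on the left at 15.8% and 16.7%, and on the right the 4 DSS-treated libraries lie at 20.1% or below.

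Averaged over the 2 genotypes, Itgae and Ccr2 rose and Atf3 fell in follicular helper-like cells after DSS. With libraries as the unit and 4 group means in 1 edgeR fit, 3.89% of 7900 genes were called for the DSS effect averaged over genotypes, 1.87% higher and 2.01% lower. Itgae, the CD103 integrin chain that binds E-cadherin on epithelium, stood at 5.36, 8.91, 9.25 and 10.8 CPM in untreated libraries and at 34.5, 33.8, 36.4 and 28.8 CPM after DSS. The groups did not overlap, which held for 12.2% of all 7900 genes. Itgae rose by 1.89 ± 0.24 on the log2 scale (adjusted p = 0.0013, edgeR). Itgae lies on chromosome 11 (73090583 to 73147446, plus strand, GRCm38). In other CD4 T cells it was 11.4 to 17.8 CPM untreated and 16.2 to 28.9 CPM after DSS, and in Foxp3 cells 34.4 to 56.3 and 72.7 to 108.2 CPM, so these populations were higher after DSS too by their group means.

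Ccr2, a receptor of inflammatory chemokines, rose by 1.34 ± 0.17, from 43.3 to 91.2 CPM in untreated libraries to 139.8 to 217.9 CPM after DSS. Hopx (0.98 ± 0.15), a homeodomain protein of effector memory cells, and Apobec3 (1.03 ± 0.14), a restriction factor against retroviruses, rose as well. Il7r (0.82 ± 0.13), the amphiregulin gene Areg (0.87 ± 0.18), Ctla4 (0.44 ± 0.11) and Nt5e, which encodes CD73 (0.39 ± 0.10), rose. The last 3 had groups that did not overlap, as did 12.2% of all genes tested. The stress factor Atf3 fell by 2.02 on the log2 scale (SE 0.29), from 36.2 to 92.5 CPM to 10.8 to 21.9 CPM. The chaperone genes Hspd1 (-1.09 ± 0.16), Hspe1 (-1.01 ± 0.15) and Hsp90aa1 (-1.03 ± 0.16) fell in the average. By genotype their values were -0.28 ± 0.23, -0.31 ± 0.21 and -0.31 ± 0.22 in wildtype cells, none called, and -1.91 ± 0.23, -1.70 ± 0.21 and -1.74 ± 0.23 in mutant cells, where the untreated libraries were high. The difference between genotypes for Hspd1, -1.63 ± 0.32, did not pass its own test (adjusted p = 0.247, edgeR). The whole heat shock and immediate early list had 3 of 14 genes lower in the average and a median of 0.09 in wildtype and -0.47 in mutant cells. Also lower in the average were Klf2 (-0.54 ± 0.12), S1pr1 (-0.52 ± 0.13) and Plagl1 (-1.32 ± 0.24), a zinc finger gene. Other populations of the same libraries moved with several of these genes by their values, which were not tested. Atf3 was 56.9 to 126.6 CPM untreated and 14.2 to 29.3 CPM after DSS in other CD4 T cells, and 21.3 to 45.9 and 8.45 to 30.2 CPM in Foxp3 cells. Apobec3 was 30.4 to 44.3 and 65.5 to 76.9 CPM in other CD4 T cells, and 32.3 to 50.1 and 93.5 to 112.8 CPM in Foxp3 cells. Ccr2 was 101.1 to 207.1 and 192.1 to 250.1 CPM in other CD4 T cells, where the treatments overlap, and 326.9 to 454.7 and 455.2 to 614.7 CPM in Foxp3 cells. Of the genes called in follicular helper-like cells, Areg, Klf2, Ctla4, Nt5e and S1pr1 were less stable: with 1 library left out in turn, they kept their call in 4, 3, 1, 0 and 0 of 8 fits. Il7r did so in 7 and Plagl1 in 6. Of the regulatory T cell list 2 of 12 genes rose, Ctla4 and Areg, and 1 fell, Tnfrsf4 (-0.59 ± 0.14). Of the list opposed to or low in follicular helper cells 2 of 12 rose, Il7r and Selplg (0.75 ± 0.17), and 2 fell, Klf2 and S1pr1. Tnfrsf4 and Selplg kept their call in 4 of 8 fits that each left out 1 library. The Foxp3 share of T cells moved with DSS in the same libraries, as given above, and its part in the rise of Ctla4 and Areg was not tested.

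Of the follicular helper lists few genes passed under DSS. Tox2 fell by 0.56 on the log2 scale (SE 0.14), Angptl2, a secreted angiopoietin-like protein, by 1.69 (SE 0.40) and Il21 by 0.83 (SE 0.19, adjusted p = 0.024, edgeR), which makes 1 of 11 regulators, 1 of 14 surface and help genes and the 1 cytokine. Bcl6 (-0.22 ± 0.16), Tcf7 (0.10 ± 0.10), Slamf6 (0.16 ± 0.12) and Pdcd1 (0.29 ± 0.19) did not pass. Il21 was 40.2 and 44.5 CPM in untreated wildtype, 44.6 and 32.6 CPM in DSS-treated wildtype, 60.1 and 72.4 CPM in untreated mutant and 31.0 and 20.3 CPM in DSS-treated mutant libraries. The 2 genotypes thus gave different values, -0.12 ± 0.26 in wildtype and -1.53 ± 0.26 in mutant cells on the log2 scale, the second called (adjusted p = 0.0074, edgeR). The difference between them, -1.41 ± 0.37, did not pass its own test (adjusted p = 0.77, edgeR). Without replicate 2 of the treated mutants the adjusted p of Il21 was 0.17 for the average and 0.225 for the mutant cells (edgeR). With 1 library left out in turn, the averaged effect kept its call in 3 of 8 fits for Il21, in 1 for Tox2 and in 0 for Angptl2.

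The genes named by size under DSS were Krt14, Krt5, Wfdc2, Cxcl13 and Gpx2 in the higher direction and Ccl21a, Ccl17, Atf3, 2900060B14Rik and Plagl1 in the lower. In the alternative fits the calls of these named genes were kept 59 times and lost 58 times. Krt14, a keratin of basal epithelium, was at 0 CPM in the 4 untreated libraries and in DSS-treated wildtype replicate 1, and at 151.5, 300.5 and 60.9 CPM in the other 3. Krt5, Wfdc2 and Gpx2 had at most 1.341 CPM in untreated libraries and at most 1.353 CPM in DSS-treated wildtype replicate 1. These keratin, Wfdc2 and Gpx2 calls rest on the libraries where the genes were high. Ccl21a, a chemokine of lymphoid stroma, was 322 and 125 CPM in 1 untreated library of each genotype and 0 in the other 2. The summed stroma and epithelium list of 6 genes was 12.1 to 14.5 CPM in wildtype and 20.8 to 35.5 CPM in mutant libraries without treatment, and 14.2 to 22.1 CPM in wildtype and 49.0 to 92.9 CPM in mutant libraries after DSS, with Col1a1, Col1a2, Krt8 and Krt19 at 0 in at least 1 library. Its part in these folds was not tested. The number of genes called was 307 with all libraries and 33 when replicate 2 of the untreated wildtype was left out. It was 155 without replicate 1 of that group, 182 and 115 without replicates 1 and 2 of the untreated mutants, 79 without replicate 2 of the treated wildtype and 92 without replicate 2 of the treated mutants. Itgae, Ccr2, Hopx, Apobec3, Atf3, Hspd1, Hspe1 and Hsp90aa1 kept their call in all 8 of these fits.

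Within genotypes, the fit called 0.0% of genes for DSS in wildtype cells, where 754 genes had an unadjusted p under 0.05, the smallest adjusted p was 0.119 and DESeq2 called 4. The 5 genes of smallest p were Itgae (2.20 ± 0.36), Lmna (-1.22 ± 0.22), Hopx (1.14 ± 0.21), Apobec3 (1.07 ± 0.20) and Ccr2 (1.29 ± 0.24), none past the threshold. In mutant cells 1.95% were called, 0.987% higher and 0.962% lower. There Itgae rose by 1.59 ± 0.32, Il18r1, a chain of the interleukin 18 receptor, by 1.06 ± 0.18 and Il7r by 1.27 ± 0.19. Tox fell by 1.05 (SE 0.22), Tox2 by 0.86 (SE 0.19), Tnfrsf4 by 1.04 (SE 0.19) and Hspd1 by 1.91 (SE 0.23), and Dcn, a fibroblast gene, rose by 2.90 ± 0.60. The genes named by size were Krt5, Cxcl13, Wfdc2, Krt15 and Gpx2 in the higher and Hspb1, Atf3, Hspa1a, Hspd1 and Plagl1 in the lower direction. Of these 10 only Hspd1 kept its call whichever single library was left out. The count of 154 went to 19 without replicate 2 of the untreated mutants and to 29 without replicate 2 of the treated mutants. It lay between 74 and 85 without replicate 1 of either mutant group or without either untreated wildtype library. A different count in the 2 genotypes is not a difference between them: for the interaction 0.0% of genes were called (396 with an unadjusted p under 0.05, smallest adjusted p 0.156, none in DESeq2), and its genes of smallest p were Hspa1a, Hspd1, Rasgrp1, Emp1 and Anxa6.

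**Figure D5:**
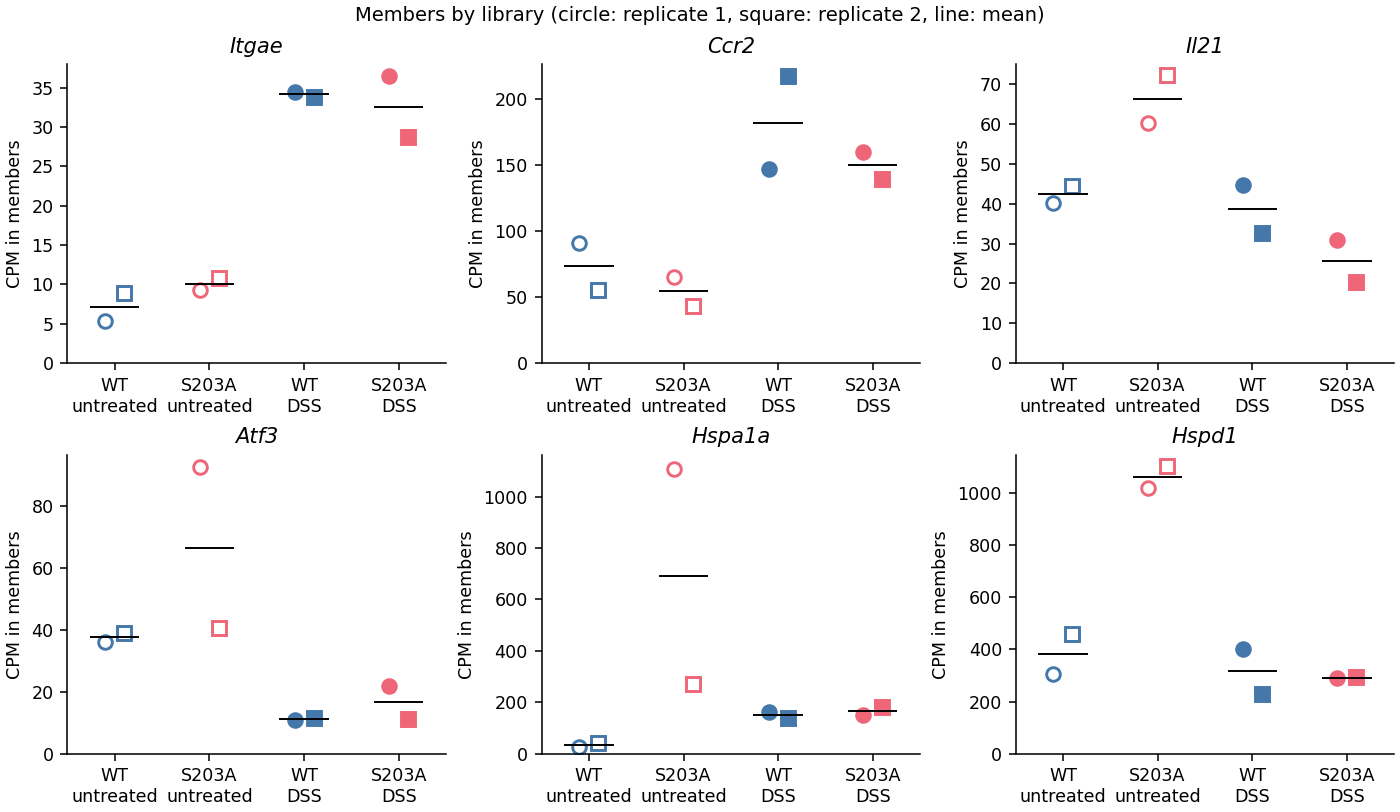
Level of 6 genes in follicular helper-like cells (y axes, CPM) in the 4 groups (x axes), with 1 point per library and a line at the mean. Itgae lies at 28.8 CPM or more in all DSS-treated and at 10.8 CPM or less in all untreated libraries, and Hspd1 stands above 1000 CPM in the 2 untreated mutant libraries only.

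The mutation in untreated mice was accompanied by higher heat shock genes. The fit called 0.165% of genes, 0.139% higher and 0.0253% lower in mutant cells, 13 genes in all. Of the 14 heat shock and immediate early genes 7 were higher and none lower. Hspa1a, an inducible HSP70 gene, was 26.8 and 42.3 CPM in wildtype and 1108 and 271.2 CPM in mutant libraries, a log2 fold change of 4.30 ± 0.51 (adjusted p = 0.0035, edgeR). Replicate 1 of the mutant was far above replicate 2, and both lay above the wildtype pair. In this comparison the pairs of libraries did not overlap for 36.3% of all 7900 genes tested. Hspd1, the mitochondrial chaperonin gene and no member of that list, was 305.8 and 458.8 against 1016 and 1101 CPM (1.48 ± 0.23), and Hsph1, a cochaperone of HSP70, 174.3 and 350.8 against 992 and 1050 CPM (1.96 ± 0.29). Hspa1b (3.72 ± 0.54) and Hsp90aa1, which encodes an HSP90 (1.34), were the other named genes. Anxa6, an annexin (-1.15 ± 0.20), and Dgat1, the last enzyme of triglyceride synthesis (-0.86 ± 0.15), were the 2 lower genes. Higher heat shock genes were seen outside these cells too. The summed heat shock and immediate early list was 14759 to 16404 CPM in follicular helper-like cells of untreated mutants against 6847 to 8565 CPM in untreated wildtype. In other CD4 T cells it was 17417 to 18414 against 7856 to 10789 CPM. Dgat1 was 314 and 289.2 against 548.5 and 365.9 CPM in other CD4 T cells, and 337.1 and 329.9 against 504.6 and 473.7 CPM in Foxp3 cells. Anxa6 differed less in Foxp3 cells, with 184.7 and 179.4 against 188.5 and 197.2 CPM, and was 168.6 and 104.9 against 175.6 and 179.1 CPM in other CD4 T cells. What these populations share in a library was not tested as a source of the difference. No follicular helper gene was called, with Il21 at 0.65 ± 0.24 and Tox2 at 0.24 ± 0.19. The count was 2 and 3 without replicates 1 and 2 of the untreated wildtype, 5 without replicate 1 of the untreated mutants and 8 when replicate 1 of the treated wildtype was left out. Without replicate 1 of the untreated wildtype none of the 13 genes was called, and all 7 heat shock genes of the list lost their call. Of the 10 genes called without replicate 2 of the untreated mutants, 4 were among the 13. Leaving out each untreated wildtype library in turn, Hspa1a lost its call, with adjusted p values of 0.37 and 0.12 (edgeR).

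After DSS the mutation effect gave 0.0% of genes called (281 with an unadjusted p under 0.05, smallest adjusted p 0.623, none in DESeq2). Its 5 genes of smallest p were Cxcl13, Dcn, Krt15, Plk2 and Hbegf, all with higher estimates in mutant libraries. The stroma and epithelium list was also highest there, but Dcn is 1 of its 6 genes. In DSS-treated mutant replicates 1 and 2, Dcn held 78.31 and 22.55 CPM of the 92.9 and 49.0 CPM of that list. The list is thus no separate observation beside Dcn. Averaged over treatments the mutation called 0.0% as well (388 with an unadjusted p under 0.05, smallest adjusted p 0.0696, 4 called in DESeq2), and the genes of smallest p were Hspa1a (2.23 ± 0.34), Hspa1b (2.07 ± 0.36), Dnajb1 (0.77 ± 0.14), Dnaja1 (0.59 ± 0.12) and the phosphatase gene Dusp14 (1.01 ± 0.19). With 2 libraries in a group an exact permutation test of a single value cannot give a p below 0.333, so these statements rest on the spread that edgeR shared over genes and groups.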

How the data were processed

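Single-cell libraries of transcript 3' ends came from 8 mouse colon samples. The authors deposited UMI counts per gene and barcode, with no normalization, and a table of the cells they kept. Cell Ranger 3.1.0, Seurat 4.0.1 and the build mm10 are named in the submitters' processing notes. The filter behind the kept cells and any doublet removal are not given in the sources used here, and no doublet caller was run. A second barcode list held the same 27420 barcodes and was not used further. Of 31053 gene rows, 30934 identifiers were in the reference annotation.

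Counts were summed per library and population and tested with edgeR 4.0.16 (R 4.3.3; TMM, filterByExpr, quasi-likelihood, Benjamini-Hochberg over all genes tested, threshold 0.05), with the library as block between populations and 4 group means between conditions. The 15 genes the rule reads were left out of population tests. Shares were compared by exact two-sided permutation over libraries (Python 3.11.15, numpy 2.4.6). The fits were run on simulated counts with the same dispersion for every gene. That run does not show how they perform at the spread of these libraries. In population comparisons the 10 called genes with the largest fold in each direction were named (at least 20 CPM in the higher population, same sign in all 8 libraries), in condition comparisons the 5 largest in each direction or, with under 5 called, the 5 of smallest p. Cells, marker genes and gene lists were chosen with earlier results of these data known. Fibroblast barcodes had at least 5 Col3a1 UMIs and B cell barcodes at least 3 Cd79a UMIs. Both lay outside the list of kept cells and held no UMI of the gate's T cell genes, and fibroblast barcodes held no Cd4 UMI. Alternatives were DESeq2 1.42.0, no filter on low counts, no library block, a marker sum of at least 3, no B cell UMI and depth-matched other cells. Further ones were thinning to 1000 UMIs, a marker sum without Sh2d1a (for shares), other denominators and leaving out each library. The denominator without Foxp3, Il17a and Gzmk cells and the comparisons of the Cxcr5 share (reported without a test, since the rule reads Cxcr5) and of the genotype effect between treatments were chosen after the data were seen. A result that needs a withheld item is not reported here.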

Additional observations from a re-analysis of the deposited data

Results flagged for a closer look

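The difference between genotypes in the share of follicular helper-like cells among gated T cells had opposite signs in the 2 treatments. Mutant minus wildtype was 5.85 percentage points in untreated mice, where both mutant libraries lay above both wildtype libraries, and -3.064 points after DSS, where both lay below. The second minus the first is -8.913 points. An exact permutation of genotype within treatment, chosen after the shares were seen, gave p = 0.0556, the smallest this design allows. The result was flagged because the genotypes were fully separated, in opposite directions, in both treatments. That separation alone fixes the p at this value, so the permutation adds no support to the pattern. With each cell thinned to 1000 UMIs the difference was -3.467 points (exact permutation p = 0.0556, fixed in the same way). With Sh2d1a left out of the marker sum it was -6.581 points (exact permutation p = 0.0556, also fixed in that way). It was -5.555 points with a marker sum of at least 3 (exact permutation p = 0.111) and -7.045 points with all kept cells as denominator (exact permutation p = 0.111). With T cells lacking Foxp3, Il17a and Gzmk as denominator it was -12.27 points (exact permutation p = 0.111). In each of these settings but the thinned one and the one without Sh2d1a, the DSS-treated mutant and wildtype libraries overlapped. At a marker sum of at least 3 they held 3.09% and 5.53% in mutants and 7.17% and 4.95% in wildtype. The share of Il17a cells ranged from 13.1% to 45.0% between libraries, with 45.0% and 13.1% in the 2 DSS-treated mutant libraries, and its part in the difference was not tested.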

How the results depend on the processing

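Counts of called genes depended on the tool, the filter and single libraries more than the direction of the named genes, none of which reversed in any alternative run. The cause was not tested. With DESeq2 the counts were 1303 (against other T cells), 1382 (against Foxp3 cells), 69 (Cxcr5 split), 142 (DSS averaged), 4 (DSS in wildtype), 73 (DSS in mutants) and 4 (mutation averaged). Fits with no replicate block called 1045, 1403 and 11 genes in the 3 population comparisons. No filter on low counts gave 278 for the Cxcr5 split, 632, 111 and 456 for DSS averaged, in wildtype and in mutants, 84, 44 and 69 for the mutation in untreated, in DSS-treated and in all mice, and 32 for the interaction. A marker sum of at least 3 gave 69 for the Cxcr5 split, 96 for DSS averaged and 56 for DSS in mutants. Without cells holding a B cell UMI the counts were 80 for the Cxcr5 split, 6 for the mutation after DSS and 4 for the mutation averaged. Leaving out each library in turn gave 33 to 341 for DSS averaged, 0 to 6 for DSS in wildtype, 19 to 154 for DSS in mutants, 2 to 16 for the mutation in untreated mice, 0 to 8 after DSS, 0 to 5 averaged and 0 to 3 for the interaction. The same omission gave 1781 to 1998, 1790 to 2015 and 109 to 176 in the population comparisons. The genotype difference in share ranged from -0.04707 (sign reversed, without replicate 1 of the untreated mutants) to 3.295 points. The DSS difference in share ranged from -4.579 to -2.178 points with 1 library left out. The DSS difference in the share with Cxcr5 was -5.642 points when thinned and -8.529 to -6.26 points with 1 library left out, given as a description. No paired analysis was possible between conditions because the labels give no replicate numbers that pair libraries. With 2 libraries a group, and 174 to 373 follicular helper-like cells in each, low genes were not testable.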

Other observations

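Outside the list of kept cells, a further 3352 barcodes met the same rule on UMIs. Of these 379 held a Cd4 UMI and 42 a Cd8a or Cd8b1 UMI. Under 400 genes were found in 3 of them, and 20% or more mitochondrial UMIs in 3. They entered no comparison, so the shares given here hold for the authors' list, whose filter is not given.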
